A study of Mus musculus with 3 samples.

Results

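The genes described here encode the inflammatory cytokines IL-1 alpha (Il1a), IL-1 beta (Il1b), IL-6 (Il6), IL-18 (Il18), TNF (Tnf) and oncostatin M (Osm), and 3 inflammasome proteins, the sensor NLRP3 (Nlrp3) and the caspases 1 and 4 (Casp1, Casp4). They were chosen by name, and all 9 were found among the 23997 genes of the RNA-seq tables. RNA was measured in colonic macrophages of male C57BL/6 mice, sorted as CD64-positive cells that were low in Ly6C and lacked Siglec-F. The Lyz2-Cre allele was present in all 3 genotypes, and it drives Cre across the myeloid lineage, neutrophils and monocytes included. The control mice, called WT, carried Lyz2-Cre alone, while Tle3cKO mice also carried floxed Tle3 and Tle4cKO mice floxed Tle4, genes of Groucho-family transcriptional corepressors. Each genotype was a pool of sorted cells, from 4 mice for WT, 3 for Tle3cKO and 4 for Tle4cKO, and the age is given as 8.9 weeks in one label and 9 weeks in another. With 1 library per genotype no spread between replicates was measured, and no difference below has a test or a replicate check.

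IL-1 beta and IL-18 are made as inactive precursors. In a widely studied route, the inflammasome sensor NLRP3 recruits caspase-1 through an adaptor, and caspase-1 cuts both precursors and the pore-forming protein gasdermin D. Mouse caspase-4, also called caspase-11, responds to bacterial lipopolysaccharide in the cytosol and cuts gasdermin D as well. TNF, IL-6 and oncostatin M are made without this step and act through their own receptors, IL-6 and oncostatin M sharing the subunit gp130. Gut-resident macrophages are known for restrained cytokine release on contact with bacteria. RNA levels do not show how much precursor was cut or released.

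Values are FPKM, fragments scaled by transcript length and by sequencing depth, so levels may be compared between genes. A difference between libraries is given as the log2 ratio of FPKM plus 1, over the 11114 genes whose mean reached 1 FPKM. All 9 genes passed this filter. A gene is said to be past the small threshold where this ratio stands for FPKM + 1 at least 25% higher or at least 20% lower, the same fold in either direction. Totals were between 569961 and 610714 FPKM. Steps between the lowest values put the depth of the Tle3cKO-labelled library at 0.968 and that of Tle4cKO at 1.21 times WT, while absolute depth is not known, so no counting interval is given. Tle3 was at 38.6 FPKM in WT and at 46.9 in Tle4cKO but at 70.7 in the library labelled Tle3cKO, which goes against that label. Tle4 was at 8.50 FPKM in WT, at 11.0 where the label is Tle3cKO and at 5.80 in Tle4cKO. Below, values given as a series of 3 follow the order WT, Tle3cKO-labelled library, Tle4cKO. The gene-level value does not separate the floxed exons. Of 11 macrophage markers 10 matched a row and all were above 0, with Cd68 between 483 and 501 FPKM and Fcgr1, which encodes CD64, between 33.3 and 39.2. Ly6c2 was between 5.98 and 9.38 FPKM. In bulk RNA, fewer cells of one type and less RNA per cell cannot be told apart.

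Il1b had by far the highest level of the 9 genes in every library. It stood at rank 107 of all genes in WT, 122 in the Tle3cKO-labelled library and 146 in Tle4cKO. Nlrp3 came next, at ranks 704, 637 and 740, and Il1b was 6.43, 4.93 and 5.08 times Nlrp3 in the 3 libraries. Tnf and Casp4 followed at similar levels, with a Tnf to Casp4 ratio of 0.992, 1.104 and 0.971, so their order was not the same in each library. Osm and Casp1 also changed places, with ratios of 0.961, 1.06 and 1.01. Il1a and Il6 did as well, with ratios of 0.919, 1.64 and 1.18. Il18 had the lowest level, and Il6 was 2.88, 2.08 and 2.82 times as high. The 9 genes together held 0.197% of all FPKM in WT, 0.189% in the Tle3cKO-labelled library and 0.160% in Tle4cKO, most of it from Il1b.

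**Figure D1:**
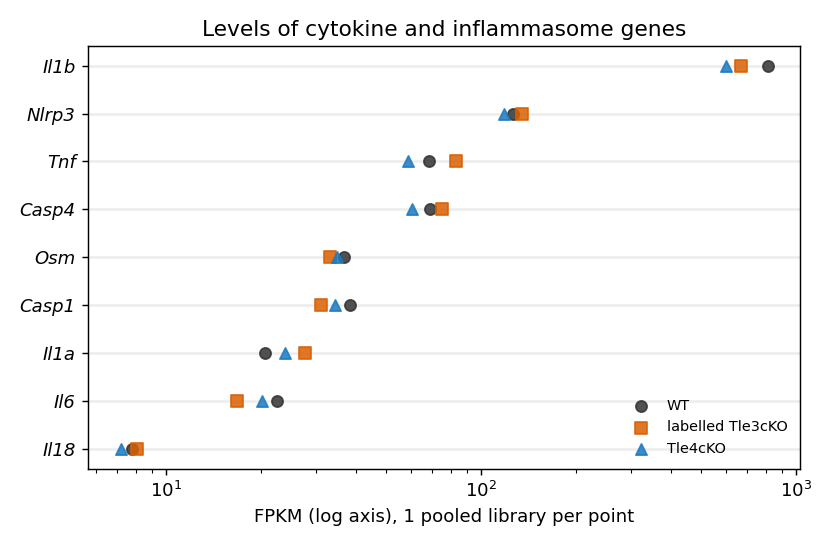
FPKM of each gene on a log axis, 1 point per pooled library, with circles for WT, squares for the Tle3cKO-labelled library and triangles for Tle4cKO. Il1b lies alone at 600.3 to 815 FPKM, and in no gene is the highest library more than 1.42 times the lowest.

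Stretches of promoter are shown for 4 members, as 2 examples with the letters of a TATA box and 2 with a match to the NF-kB consensus close to the start. RefSeq promoters on GRCm38.p6, the build that mm10 names, were matched for 8 of the 9 members. The motifs were searched on both strands in the 250 bases before each listed start, and the last 120 bases are printed on the gene's strand with matches in capitals. Il1b is at chr2:129371140-129371259 (minus strand), Tnf at chr17:35202008-35202127 (minus), Il6 at chr5:30012994-30013113 (plus) and Casp4 at chr9:5308729-5308848 (plus, the first of its listed starts).
Il1b: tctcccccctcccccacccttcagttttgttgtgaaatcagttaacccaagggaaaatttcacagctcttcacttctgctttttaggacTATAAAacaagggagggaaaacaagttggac
Tnf: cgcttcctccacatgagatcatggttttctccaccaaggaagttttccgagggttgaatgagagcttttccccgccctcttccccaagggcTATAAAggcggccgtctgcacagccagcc
Il6: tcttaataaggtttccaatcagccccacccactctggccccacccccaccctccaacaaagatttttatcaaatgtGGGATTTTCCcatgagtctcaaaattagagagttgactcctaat
Casp4: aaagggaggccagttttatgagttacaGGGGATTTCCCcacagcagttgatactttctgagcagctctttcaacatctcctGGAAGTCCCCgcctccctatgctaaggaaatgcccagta

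The capitals in Il1b and Tnf are TATAAA, the letters of a TATA box, which begin at -31 and -29 from the start. Il1a has the same letters at -32, and Il18 has them on the other strand at -175. Of all 27025 genes with a promoter, 14.3% hold TATAAA in this window. The capitals in Il6 and Casp4 match the NF-kB consensus, at -44 in Il6 and at -93 and -39 in Casp4, where GGGGATTTCC and GGGATTTCCC overlap at the first place. Another match, GGGAACCCCC, lies at -186 from the second listed start of Nlrp3, and 8.23% of all genes hold such a match. TGANTCA, an AP-1 site, was found in Il1a at -12 and in Il6 at -249, against 7.82% of all genes. These are matches of letters and no measure of binding. No match in this window says nothing of sites farther away.

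None of the 9 genes differed by 2-fold between any pair of libraries. That threshold was passed by 0.423% of all genes tested for the Tle3cKO-labelled library against WT, by 0.648% for Tle4cKO against WT and by 0.729% for Tle4cKO against the Tle3cKO-labelled library. Past the small threshold, 1 of the 9 was lower and 1 higher in the Tle3cKO-labelled library than in WT, beside 5.25% and 6.87% of all genes. With libraries scaled to equal totals these counts were 0 lower and 2 higher. The shares of all genes under that scaling were not computed, so these counts cannot be set against the percentages above. It moved the median log2 ratio of all genes in this comparison from -0.01 to 0.08. In Tle4cKO against WT, 1 was lower and 0 were higher, beside 5.94% and 5.17%. In Tle4cKO against the Tle3cKO-labelled library, 1 was lower and 0 were higher, beside 6.77% and 4.59%. Under each of the 4 other scalings tried, 2 were lower in that comparison, Casp4 joining Tnf. The shares of all genes were not computed under those scalings either. Equal totals moved the median log2 ratio of all genes in that comparison from 0.0093 to -0.05. At 1.1-fold, 4 members were lower and 2 higher in the Tle3cKO-labelled library than in WT, where 21.9% of all genes were lower and 21.9% higher. At that threshold 5 were lower and 1 higher in Tle4cKO than in WT, beside 21.3% and 20.2%, and 6 lower and 2 higher in Tle4cKO than in the Tle3cKO-labelled library, beside 21.6% and 20.5%. The differences described below are thus modest in size, and each comes from a pair of libraries.

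In Tle4cKO against WT, 8 of the 9 genes were lower at any size and 1 higher, where 50.6% of all genes tested were lower and 49.4% higher. Their median log2 ratio was -0.15, beside -0.0026 over all genes. In the Tle3cKO-labelled library against WT, 4 were lower (52.4% of all genes) and 5 higher (47.6%), and the median was 0.04 beside -0.01 over all genes. In Tle4cKO against the Tle3cKO-labelled library, 6 were lower (47.6% of all genes) and 3 higher (52.4%), with a median of -0.15 beside 0.0093. The first 2 comparisons share the WT library, so they are not independent of each other. For each gene the last ratio is the first minus the second, so it adds no separate evidence. By library, 5 members had their highest value in the Tle3cKO-labelled library (31.8% of all genes), 4 in WT (35% of all genes) and 0 in Tle4cKO. Genes with their highest value in Tle4cKO made up the rest of all genes tested. Tle4cKO held the lowest value of 5 members (31.3% of all genes).

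**Figure D2:**
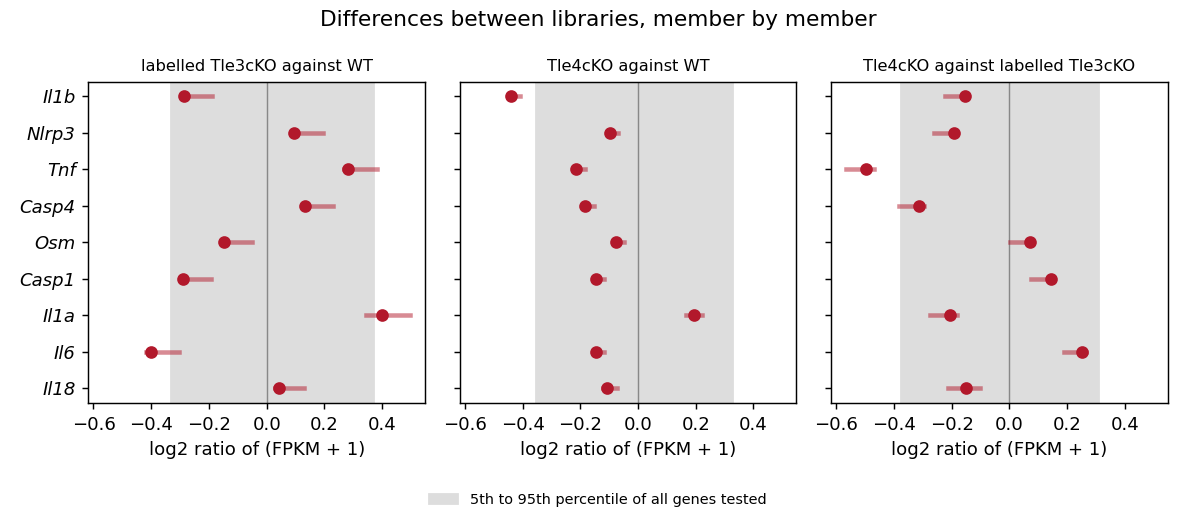
Log2 ratio of FPKM + 1 for each gene (rows) in each comparison (panels). Points are the values reported, bars their range over 8 other settings, and the grey band runs from the 5th to the 95th percentile of all genes tested. Il6 and Il1a lie outside the band in the first panel, Il1b in the second and Tnf in the third.

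Il1b (ENSMUSG00000027398.13, chromosome 2, 129364570 to 129371139, GENCODE M21 on GRCm38), the main secreted IL-1 of activated macrophages, was at 815 FPKM in WT, 667 in the Tle3cKO-labelled library and 600.3 in Tle4cKO. WT was the highest library and Tle4cKO the lowest. The log2 ratio to WT was -0.29 in the Tle3cKO-labelled library, below which lay 6.61% of all genes tested, and -0.44 in Tle4cKO, below which lay 3.03%. Between those 2 libraries it was -0.15. Il1b overlaps the antisense gene Il1bos, and the files do not state whether reads were counted by strand.

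Il1a (ENSMUSG00000027399.1, chromosome 2, 129299610 to 129309972), which lies 54597 bases from Il1b on the same strand and encodes an IL-1 that is active without cutting by caspase-1, had another order. It was at 20.7 FPKM in WT, 27.6 in the Tle3cKO-labelled library and 23.8 in Tle4cKO, the only member with its lowest value in WT. The log2 ratios to WT were 0.40, with 95.7% of all genes below it, and 0.19, with 86.9% below it. Il1a overlaps Gm14023 on the opposite strand.

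The balance of the 2 IL-1 genes was shifted in the same direction in both comparisons with WT. Il1b was 39.4 times Il1a in WT, 24.2 times in the Tle3cKO-labelled library and 25.3 times in Tle4cKO. A ratio within a library does not depend on its scaling, and this one was 1.63 and 1.56 times smaller than in WT. Both comparisons use the same WT values.

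Il18 (ENSMUSG00000039217.13, chromosome 9, 50554827 to 50581840), an inflammasome-dependent cytokine that the gut epithelium is also known to make, was at 7.80 FPKM in WT, 8.07 in the Tle3cKO-labelled library and 7.16 in Tle4cKO. These values lie close together, with log2 ratios to WT of 0.04 and -0.11. The 15 listed epithelial markers summed to 4.31, 9.93 and 49.2 FPKM in the same order, and Epcam was at 1.20, 2.02 and 3.14. Of these markers 5, 2 and 1 were listed at 0. The part of epithelial RNA in the Il18 values was not tested. Il18 overlaps Bco2 and Tex12 on the opposite strand.

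Tnf (ENSMUSG00000024401.14, chromosome 17, 35199381 to 35202007) had 68.1 FPKM in WT, 83.1 in the Tle3cKO-labelled library and 58.6 in Tle4cKO. WT lay between the other libraries, with a log2 ratio of 0.28 for the Tle3cKO-labelled library and -0.21 for Tle4cKO. Tle4cKO against the Tle3cKO-labelled library gave -0.50, the largest difference in size among the members in any comparison, with 2.98% of all genes tested below it. The highest library was 1.42 times the lowest.

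Il6 (ENSMUSG00000025746.11, chromosome 5, 30013114 to 30019981), a cytokine that drives STAT3 signalling, was at 22.5 FPKM in WT, 16.8 in the Tle3cKO-labelled library and 20.2 in Tle4cKO. It was lowest where Tnf was highest. The log2 ratio to WT was -0.40 in the Tle3cKO-labelled library, with 3.11% of all genes below it, and -0.15 in Tle4cKO. Osm (ENSMUSG00000058755.3, chromosome 11, 4236420 to 4241026), a cytokine of the same family that acts on stromal cells, was at 36.7, 33.1 and 34.8 FPKM, with log2 ratios of -0.15 and -0.08. Fibroblasts can also make IL-6. The 14 stromal, endothelial and muscle markers summed to 264 FPKM in WT, 310 in the Tle3cKO-labelled library and 295 in Tle4cKO. Listed markers of dendritic cells summed to 428, 356 and 456 FPKM, with Ccr7 at 305, 216 and 316, and those of macrophages to 5029, 4485 and 4676. The last 2 sums were lowest where Il6 and Osm were. Ccr7 made up most of the dendritic sum, however, and C1qa, C1qb and C1qc most of the macrophage sum. Of 9 dendritic markers tested, 5 were lower and 4 higher in the Tle3cKO-labelled library than in WT. For the 10 macrophage markers these counts were 6 and 4, beside 52.4% lower and 47.6% higher over all genes. The part of these cells in the values of Il6 and Osm was not tested.

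Of the inflammasome genes among the members, Nlrp3 had the smallest differences from WT. Nlrp3 (ENSMUSG00000032691.14, chromosome 11, 59541568 to 59566956) had 127 FPKM in WT, 135 in the Tle3cKO-labelled library and 118 in Tle4cKO. Its log2 ratios to WT were 0.09 and -0.10, inside the range of most genes. Casp4 (ENSMUSG00000033538.13, chromosome 9, 5308828 to 5336783) was at 68.7, 75.3 and 60.4 FPKM, with log2 ratios of 0.13 and -0.18 and one of -0.31 for Tle4cKO against the Tle3cKO-labelled library. Casp1 (ENSMUSG00000025888.5, chromosome 9, 5298517 to 5307265) lies 1562 bases from Casp4 on the same strand, yet its values were in another order. It was at 38.2 FPKM in WT, 31.1 in the Tle3cKO-labelled library and 34.5 in Tle4cKO, with log2 ratios of -0.29 and -0.15.

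Ratios between members put these shifts side by side. Of the 36 pairs that 9 genes form, 4 were shifted by at least 1.5-fold in the Tle3cKO-labelled library against WT, 1 in Tle4cKO against WT and 3 in Tle4cKO against the Tle3cKO-labelled library. Il1a to Il6 moved most, from 0.919 in WT to 1.64 in the Tle3cKO-labelled library, a 1.79-fold shift, and was 1.18 in Tle4cKO. Tnf to Il6 was 3.03 in WT, 4.95 in the Tle3cKO-labelled library and 2.90 in Tle4cKO, so WT and Tle4cKO were close and the Tle3cKO-labelled library stood apart. Tnf to Casp1 was 1.78, 2.67 and 1.70. In Tle4cKO the only pair past 1.5-fold against WT was Il1b with Il1a. The share of pairs past 1.5-fold over all genes tested was not computed, so these counts have no background to be set against. The pairs share genes and are a description of 3 libraries.

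**Figure D3:**
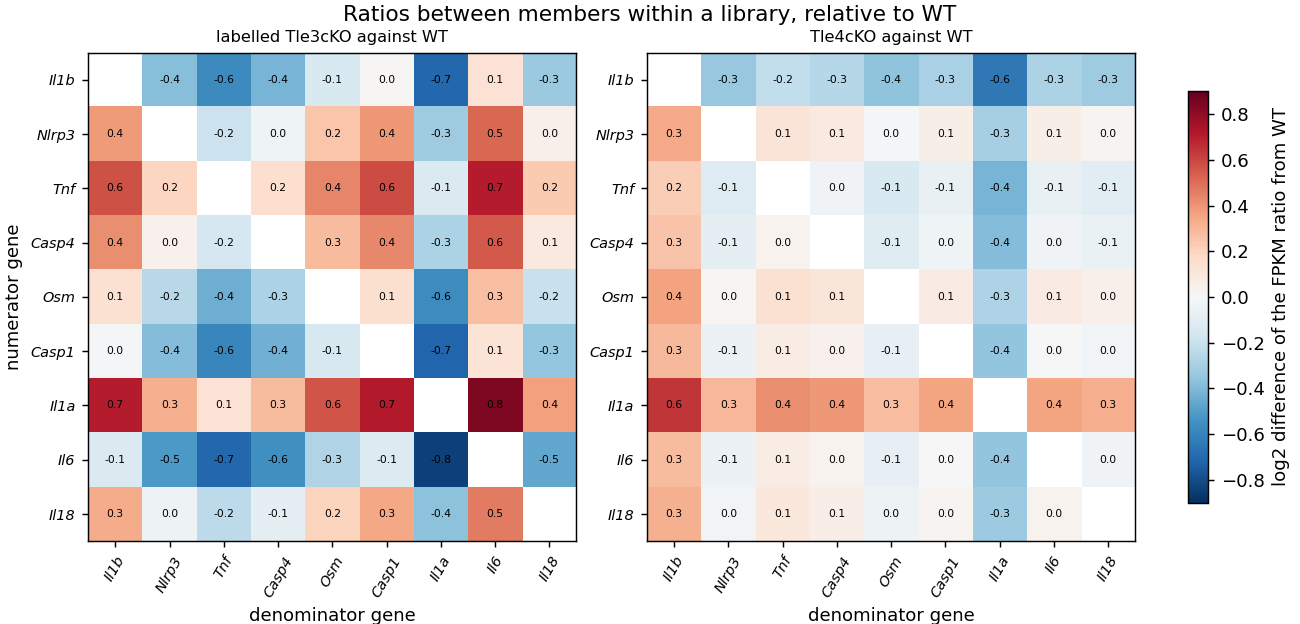
Log2 difference from WT in the FPKM ratio of each row gene to each column gene, for the Tle3cKO-labelled library (left) and Tle4cKO (right). Red means a higher ratio than in WT and blue a lower one. The largest shift on the left is that of Il1a to Il6, 0.84 on the log2 scale, and on the right that of Il1b with Il1a.

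Il1r2 and Il1rn had by far the highest levels among the listed receptors and antagonists of the IL-1 family. Il1r2, a decoy receptor that binds IL-1 without signalling, was at 1092 FPKM in WT, 1139 in the Tle3cKO-labelled library and 922 in Tle4cKO, above Il1b itself. Il1rn, the secreted receptor antagonist, was at 340.5 FPKM in WT, 309.6 in the Tle3cKO-labelled library and 291 in Tle4cKO. As Il1b was lower too, the Il1rn to Il1b ratio was 0.418, 0.464 and 0.485, and that of Il1r2 to Il1b 1.34, 1.71 and 1.54. The signalling receptor Il1r1 was far lower, at 29.2, 27.8 and 25.2 FPKM. Il1rap, the accessory chain it needs, was at 12.4, 15.6 and 9.60 FPKM, with a log2 ratio of -0.65 for Tle4cKO against the Tle3cKO-labelled library. Il18bp, which neutralises IL-18, was at 14.9, 13.9 and 15.4 FPKM and exceeded Il18 in each library.

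Of the 12 IL-1 family genes tested, 1 was lower and 1 higher past the small threshold in each comparison. Over all genes, 5.25% to 6.77% were lower and 4.59% to 6.87% higher past it. In the Tle3cKO-labelled library these were Il33 (1.64 FPKM in WT and 1.08) and Sigirr, a receptor that dampens IL-1 signalling (1.55 and 2.25). In Tle4cKO they were Il1rap and Il1f9, an IL-36 (1.47 FPKM in WT and 2.23). The median log2 ratios were 0.08 for the Tle3cKO-labelled library and -0.05 for Tle4cKO, but they depended on the filter. At a mean of 5 FPKM they were -0.07 and -0.23, and with no filter the second was 0.

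Of 14 IL-6 family genes tested, 10 were lower in the Tle3cKO-labelled library and 11 in Tle4cKO than in WT. Over all genes tested, 52.4% and 50.6% were lower. The list medians were -0.07 and -0.11. Il6st, which encodes gp130, was at 102 FPKM in WT, 106 in the Tle3cKO-labelled library and 104 in Tle4cKO. Stat3, the factor that gp130 activates, was at 156, 151 and 161 FPKM, and the kinases Jak1 and Jak2 were at 77.6, 78.8 and 73.6 and at 87.1, 72.3 and 74.96. Osmr, the oncostatin M receptor, differed more, at 6.62, 8.60 and 4.09 FPKM, a log2 ratio of -0.92 for Tle4cKO against the Tle3cKO-labelled library. Cntf, a neurotrophic cytokine, was at 4.19, 4.06 and 2.03 FPKM. The 6 enteric glial markers summed to 34.7, 33.9 and 11.9 FPKM, with Gfap at 8.92, 9.34 and 3.82. Glial markers were thus lowest in Tle4cKO, as Osmr and Cntf were, and their part in those values was not tested.

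Of 20 TNF family and receptor genes tested, 11 were lower in the Tle3cKO-labelled library and 13 in Tle4cKO, with medians of -0.04 and -0.09. Over all genes tested, 52.4% and 50.6% were lower. The receptors Tnfrsf1a (119, 109 and 122 FPKM in WT, the Tle3cKO-labelled library and Tle4cKO) and Tnfrsf1b (170.3, 154 and 146) were at higher levels than Tnf. Tnfrsf1b to Tnf was near 2.5 in WT, 1.86 in the Tle3cKO-labelled library and 2.49 in Tle4cKO. Tnfaip3, the deubiquitinase A20 that restrains NF-kB, was nearly level at 101, 102 and 92.9 FPKM. Mlkl, the effector of necroptosis, was the one gene past the small threshold against WT, at 3.20 FPKM in WT and 2.36 in the Tle3cKO-labelled library. Over all genes, 5.25% were lower and 6.87% higher past it in that library, and 5.94% and 5.17% in Tle4cKO. Tnfsf9, the 4-1BB ligand, followed the order of Tnf at 17.5, 20.1 and 14.7 FPKM.

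Of 20 further inflammasome genes tested, 14 were lower in the Tle3cKO-labelled library and 13 in Tle4cKO, with medians of -0.09 and -0.03. Over all genes tested, 52.4% and 50.6% were lower. Ninj1, which ruptures the membrane of dying cells, had the highest level, at 572, 515 and 516 FPKM. Txnip, an NLRP3-binding protein, was at 143, 134 and 126 FPKM, and Mefv, the pyrin sensor, at 72.0, 75.8 and 66.0. P2rx7, the ATP-gated channel upstream of NLRP3, was higher than WT in both, at 45.2, 57.4 and 53.3 FPKM, and the DNA sensor Aim2 was at 9.81, 10.04 and 12.6. The sensor gene Nlrp1b was at 3.39, 2.30 and 3.38 FPKM and its pseudogene copy Nlrp1c-ps at 2.83, 1.74 and 1.75. Near-identical copies can share reads, so these values are uncertain. Casp12, a relative of the inflammatory caspases, was at 3.49, 2.99 and 1.28 FPKM, a log2 ratio of -0.98 for Tle4cKO against WT. The glial markers were lowest in Tle4cKO too, and their part was not tested here either.

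None of the 17 genes of proximal IL-1 receptor and Toll-like receptor signalling passed the small threshold in any comparison. Over all genes, 5.25% to 6.77% were lower and 4.59% to 6.87% higher past it. The list medians were -0.04 and -0.06 against WT and -0.01 for Tle4cKO against the Tle3cKO-labelled library. The adaptor Myd88 was at 37.2, 32.3 and 32.0 FPKM in WT, the Tle3cKO-labelled library and Tle4cKO, the inhibitor Tollip at 69.8, 80.4 and 79.0 and the kinase Irak2 at 68.5, 67.6 and 69.9. Irak3, an inhibitor of the pathway, was at 4.25, 5.52 and 4.79 FPKM, and Irak4 at 14.7, 11.7 and 12.9. Factors that set the stability of cytokine mRNA had medians of -0.02, -0.04 and -0.0073 in these comparisons over 14 genes. Zfp36, the tristetraprolin that degrades Tnf mRNA, was at a level near that of Il1b, at 683, 640.6 and 649.5 FPKM. Dusp1, a phosphatase that switches off p38, was at 246, 214 and 209 FPKM, and Dusp2, a related phosphatase, at 40.4, 31.7 and 36.4. In this list Dusp2 alone was lower than WT past the small threshold in the Tle3cKO-labelled library, and Zc3h12d, of the regnase family, alone was higher past it in Tle4cKO, at 4.52 and 7.15 FPKM.

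**Figure D4:**
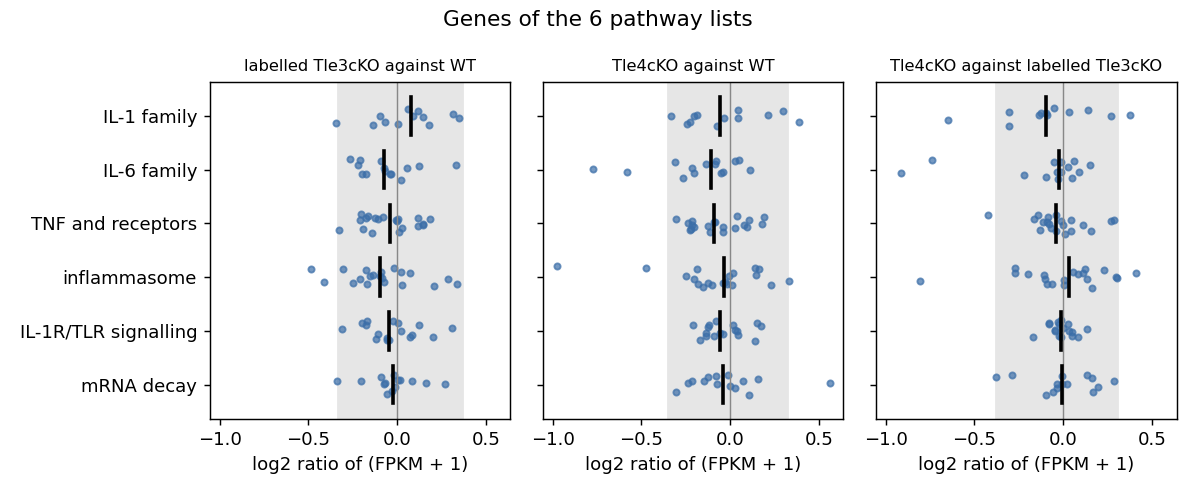
Log2 ratio of FPKM + 1 for the tested genes of 6 pathway lists (points) with each list's median (black bar), in the 3 comparisons. The grey band runs from the 5th to the 95th percentile of all genes tested. Medians lie within 0.11 of 0, and Casp12, Cntf and Osmr have the lowest ratios of Tle4cKO to WT.

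Over the 97 pathway genes tested, none differed by 2-fold in any comparison, where 0.423% to 0.729% of all genes did. In the Tle3cKO-labelled library 5 were lower than WT past the small threshold (5.25% of all genes) and 3 higher (6.87%), and in Tle4cKO the counts were 5 and 3 as well (5.94% and 5.17%). The signs of 5 of the 6 list medians for the Tle3cKO-labelled library depended on the settings.

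Other cells that make these cytokines were checked through their markers. The neutrophil markers with a row summed to 195 FPKM in WT, 196 in the Tle3cKO-labelled library and 192 in Tle4cKO, and the granule gene Camp was listed at 0 in all. Of the 6 that passed the filter, 5 were lower in the Tle3cKO-labelled library and 4 in Tle4cKO than in WT. Over all genes tested, 52.4% and 50.6% were lower. The medians of these markers were -0.12 and -0.22. S100a8 was at 81.4, 93.5 and 102 FPKM, while S100a9 (84.0, 76.6 and 67.0), Csf3r (19.7, 18.2 and 17.99), Retnlg (4.805, 4.55 and 2.05) and Mmp8 (2.72, 1.83 and 0.844) had the order of Il1b. The monocyte markers summed to 242, 235 and 246 FPKM, most of it from Plac8. Of the 7 monocyte markers tested, 4 were lower in the Tle3cKO-labelled library and 3 in Tle4cKO than in WT, beside 52.4% and 50.6%. Ccr2 was at 28.3, 12.3 and 28.3 FPKM, and Chil3, at 2.502, 0.989 and 0.0830, had the order of Il1b. Genes that tissue digestion switches on, a list that includes Dusp1 and Zfp36, had that order in their sum. The 16 genes summed to 3980 FPKM in WT, 3749 in the Tle3cKO-labelled library and 3576 in Tle4cKO. Of these, 13 were lower in the Tle3cKO-labelled library and 14 in Tle4cKO than in WT, beside 52.4% and 50.6% of all genes. Their medians were -0.08 and -0.23. Egr1 and Nr4a1, by contrast, had the order of Tnf, at 159.9, 173 and 117 and at 76.5, 77.1 and 65.6 FPKM. Junb, Ier2, Zfp36 and Btg2 had neither order. The part of neutrophils, monocytes and digestion in the values of Il1b and Tnf was not tested.

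A few genes had log2 ratios to WT nearly equal to those of a member, by the distance between the 2 ratios over the 3 libraries and among the 7413 genes whose mean reached 5 FPKM. For Il1b they were Clec4a3 (distance 0.016), Pih1d1 (0.027) and Cited2 (0.032), and 42 genes lay within 0.1. For Tnf they were Gpr84 (0.019), Arhgef12 (0.033) and Nat10 (0.035), with 34 genes within 0.1. For Casp1 they were Sidt2 (0.0047), Mrpl42 (0.0072) and Nlrc5 (0.0084), with 330 genes within 0.1, so the pattern of Casp1 was a common one.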

How the data were processed

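RNA-seq was done on 1 library of pooled sorted colonic macrophages for each of 3 genotypes, grouped by the sample titles. The authors deposited FPKM values for each gene, per the file headers. Per the submitters' processing notes, TopHat2 2.1.0, Cufflinks 2.2.1 and mm10 were used, without the part each played. Strandedness and the scaling between libraries are settings not given in the sources used here. Because FPKM is relative to depth, very abundant genes in a library depress the values of the rest.

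A pseudocount of 1 was added to FPKM before log2 ratios were taken, over genes whose mean reached 1 FPKM. With 1 library per genotype no test was made. The steps were tested on simulated data with known folds, all larger than any difference seen in the members. Folds as small as those of the members were not tried in that simulation. Members, 6 pathway lists and 12 marker lists were chosen with earlier results of these data known. Named genes were the members, the targeted genes, the 4 highest levels and the extreme ratios of each pathway list, and the 3 nearest genes. Named marker genes and the ratios of receptors and antagonists to members were chosen after their values were seen. Alternatives were pseudocounts of 0.1 and 5, no filter or one at 5 FPKM, 4 scalings and other fold thresholds. Gene positions are from GENCODE M21 on GRCm38. Python 3.11.15 was used, with pandas 2.3.3 and numpy 2.4.6 for the values and matplotlib 3.10.9 for the figures.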

Additional observations from a re-analysis of the deposited data

How the results depend on the processing

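Each result was recomputed with other pseudocounts, filters, scalings and fold thresholds. All 27 log2 ratios of the members kept their sign under the 8 alternatives for each. Only the 4 scalings could have changed a sign. The filters leave the ratio of a member as it is, and a pseudocount cannot turn its sign. Medians of the pathway lists did not all keep their sign. For the Tle3cKO-labelled library against WT, 5 of 6 changed sign, or came to 0, under at least 1 alternative. In each of the other comparisons 1 of 6 did. Against WT in the Tle3cKO-labelled library, equal totals gave medians of 0.02 for the IL-6 family, 0.05 for the TNF family, 0.04 for proximal receptor signalling and 0.08 for the mRNA decay list, and the filter at 5 FPKM gave -0.07 for the IL-1 family. No member differed by 2-fold, and none by 1.5-fold, in any comparison. The counts past the small threshold did move. With equal totals 0 members were lower and 2 higher in the library labelled Tle3cKO than in WT, since Il6 was then at -0.31 and Tnf at 0.38 on the log2 scale. Without the 50 highest genes in the totals 2 were higher there. In Tle4cKO against the library labelled Tle3cKO 2 members were lower, Casp4 joining Tnf, under each of the 4 scalings. The share of all genes past the small threshold was not computed under any of these scalings, so these counts have no background. At 1.1-fold 4 members were lower and 2 higher in the library labelled Tle3cKO than in WT (21.9% and 21.9% of all genes), 5 lower and 1 higher in Tle4cKO than in WT (21.3% and 20.2%), and 6 lower and 2 higher in Tle4cKO than in the library labelled Tle3cKO (21.6% and 20.5%). Equal totals moved the median log2 ratio of all genes from -0.01 to 0.08 for the library labelled Tle3cKO, and the median of the members to 0.13. No paired analysis was possible because each genotype is 1 library. Depth limits the low genes most, such as Il18 and the pathway genes near 1 FPKM.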
